A study of Mus musculus with 18 samples.

Results

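The Late GATA6-only regions in constitutive heterochromatin are 955 of the 42403 mouse regions in the deposited table of GATA6 binding. They were selected by 4 of the authors' region classes. GATA6 binding was of the Late cluster (14243 regions), no peak of OCT4, SOX2 or ESRRB, the pluripotency transcription factors (PTFs), was assigned (12558 remained), no SOX17 peak was assigned (6414 remained), and the chromatin state of the starting cells was constitutive heterochromatin. The 955 regions made up 14.9% of the Late GATA6-only regions and 22.1% of the 4318 constitutive heterochromatin regions. They are set beside 3 classes that differ from them in 1 of these choices, namely 691 Late constitutive regions with a SOX17 peak (the SOX17-bound class), 2493 Late GATA6-only regions in facultative heterochromatin (the facultative class) and 955 Transient GATA6-only constitutive regions (the Transient class), whose GATA6 signal is early and lost. All 4 choices came from measured values or peak calls, so GATA6 time course, SOX17 and PTF signal and histone marks are described below and not tested. Whether XEN signal entered the GATA6 clustering is not given in the sources used here, so XEN values are also a description. Whether DNase data entered the chromatin state is not given either, which limits the test of d0 accessibility against the facultative class.

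The study followed KH2 embryonic stem (ES) cells with a single-copy, HA-tagged Gata6 transgene. Doxycycline (Dox) at 1 µg/mL turned it on and drove the cells towards primitive endoderm (PrE). The series itself holds 18 MNase-seq libraries, with 3 replicates of untreated cells (d0) and 3 of cells after 8, 16, 24, 48 and 96 h of Dox (96 h is d4), all carrying the transgene. No column of the region table holds a value of these libraries, so nucleosome signal was not analysed here and there was no replicate to compare. The table gives pooled values of other assays of the same cells, of XEN cells (extraembryonic endoderm stem cells, an established line that resembles PrE), and of 48 h Dox cells treated with siRNA against Oct4 or control siRNA. The ES cells carry a mixed C57BL/6 and 129/Sv background and were kept with LIF on inactivated feeder fibroblasts, XEN cells without LIF, and the knockdown was done in 1 clone of the transgenic line. The region table gives no depth for the pooled values.

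GATA6 is a zinc-finger factor that recognises GATA sequences and drives the PrE programme, and SOX17 is an HMG-box factor that acts beside it in endoderm. Constitutive heterochromatin is marked by trimethylated lysine 9 of histone H3 (H3K9me3) and is compact and poor in active genes, whereas facultative heterochromatin carries H3K27me3 and silences genes according to cell type. Pioneer factors such as GATA6 can bind sites on nucleosomes in closed chromatin.

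The sequences below show what the bound DNA looked like. They are 61 bases of the plus strand centred on the best GATA6 motif near the summit, the base with the highest GATA6 signal, and were read from the RefSeq copy of the GRCm38 reference, the mm10 build used by the authors. Capitals mark the GATA6 motif, or, in the pair with overlapping sites, the joint extent of the GATA6 and SOX17 motifs. The first pair had the highest GATA6 motif scores of all members, the second pair had overlapping motifs, the third pair gained GATA6 after Oct4 knockdown, and the last set lay nearest to endoderm, matrix and pluripotency genes or carried the most H3K9me3.
strongest motif, intergenic, near Lmo4, chr3:144256327-144256387: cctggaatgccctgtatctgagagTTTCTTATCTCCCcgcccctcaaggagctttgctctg
second strongest motif, intergenic, chr13:31082671-31082731: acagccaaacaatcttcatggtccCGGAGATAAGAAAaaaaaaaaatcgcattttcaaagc
overlapping motifs, intergenic, chr10:126514811-126514871: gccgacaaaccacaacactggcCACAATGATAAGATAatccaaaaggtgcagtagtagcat
overlapping motifs, intron of Dis3l2, chr1:86822291-86822351: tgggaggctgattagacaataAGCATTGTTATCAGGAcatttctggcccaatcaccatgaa
gained after Oct4 knockdown, intron of Ptprm, chr17:67142453-67142513: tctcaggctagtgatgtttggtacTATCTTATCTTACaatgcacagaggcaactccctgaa
gained after Oct4 knockdown, intron of Ctnna3, chr10:63636883-63636943: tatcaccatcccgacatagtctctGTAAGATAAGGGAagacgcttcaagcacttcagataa
promoter of Hnf4a, chr2:163507560-163507620: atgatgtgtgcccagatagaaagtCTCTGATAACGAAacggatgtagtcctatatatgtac
intron of Lama1, chr17:67820915-67820975: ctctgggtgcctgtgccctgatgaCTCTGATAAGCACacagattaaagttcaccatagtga
intergenic, near Klf4, chr4:55524890-55524950: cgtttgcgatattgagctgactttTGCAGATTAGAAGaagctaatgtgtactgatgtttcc
most H3K9me3, intron of Hmbox1, chr14:64936202-64936262: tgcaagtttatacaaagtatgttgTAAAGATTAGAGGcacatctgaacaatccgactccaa

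The H3K9me3 level that defines the chromatin state was moderate in most of these regions. Histone values are ES cell reads divided by library size and region width, as deposited, and they were used in assigning the state. H3K9me3 had a median of 1.05 (quartiles 0.93 and 1.2), against 0.61 over all regions, and ran from 0.76 to 7.11. It lay above the mean of all regions in all 955, with a median z-score of 1.43 on the log2 scale, but reached 2 in 29 of them (3.04%). The class was set by clustering several marks together, so there is no single cut-off, and 648 of the 38085 regions outside the constitutive class (1.70%) had at least the members' median. H3K9me3 was the highest of the 7 profiles in 496 members (51.9%), followed by H3K27ac in 175 (18.3%) and H3K4me1, a mark of enhancers, in 124 (13.0%). The label thus describes a set with raised H3K9me3, and few members had levels like those in the Hmbox1 intron (7.11), the region near Lama1 (4.50) and the Ppm1b intron (3.87). At the low end, the regions in Gm38141 (0.76), in an intron of Ptprg (0.77) and near Sult1a1 (0.77) were still at or above the upper quartile of all regions (0.76).

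**Figure D1:**
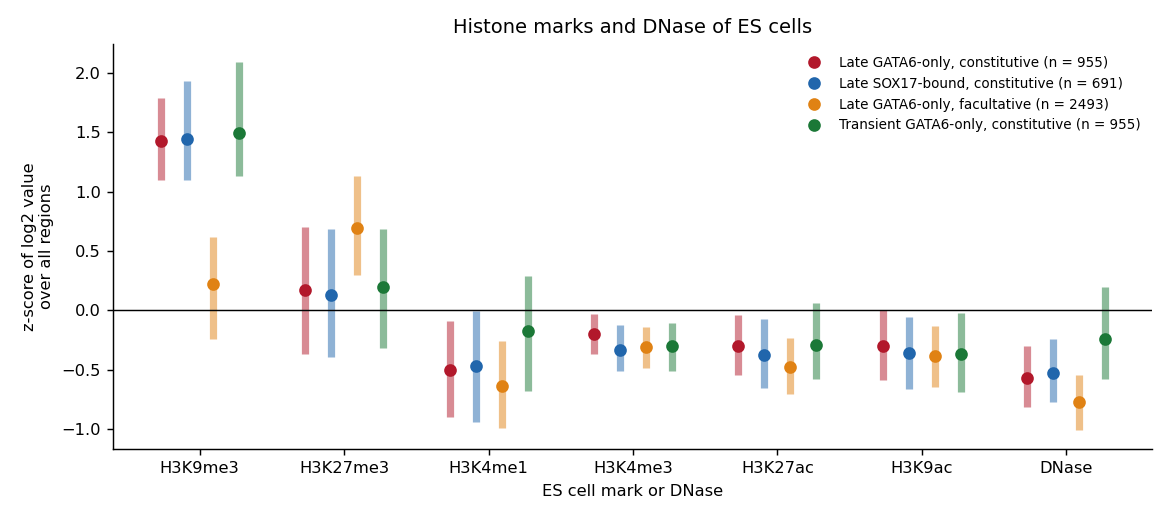
ES cell histone marks and DNase sensitivity, as z-scores of the log2 deposited values over all regions (vertical axis, no unit), for the Late GATA6-only constitutive regions and the comparison classes, with medians as points and quartiles as bars. H3K9me3 stands at a median of 1.43 in the Late GATA6-only constitutive regions, and the marks of active chromatin and DNase lie below 0.

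DNase sensitivity and H3K4me1 were low, with median values of 0.50 and 0.66 against 0.71 and 1.0 over all regions. H3K27ac, a mark of active elements, was near the all-region median (0.83 against 0.89), and H3K4me3, the mark of active promoters, slightly above it (0.47 against 0.42). H3K27me3 was near the all-region level, with a median value of 0.65 against 0.60 over all regions and 0.87 in the facultative class. When the members were split into quartiles of H3K9me3 (medians 0.86, 0.99, 1.10 and 1.36), XEN GATA6 medians were 4.74, 5.03, 5.14 and 5.03 per kb, and the share with a GATA6 motif was 83.7%, 85.8%, 81.1% and 84.9%. H3K9me3 and GATA6 in XEN cells had a Spearman rho of 0.01 across the 955 regions, which share libraries and are not independent. Both values were used in choosing the regions, which narrows their range, so nothing is read from this.

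GATA6 signal was low at these regions for the first 48 h and was highest in XEN cells. Signal values are the authors' pooled reads per region corrected for library size, on a scale that the sources used here do not state, and are given here per kb of region so that regions of different width can be set side by side. They are compared only within an assay. The median GATA6 value was 0.94 per kb at 8 h, 1.41 at 16 h, 1.35 at 24 h, 1.35 at 48 h, 2.38 at 96 h and 5.0 in XEN cells. No value was 0, and with the lowest value of each column subtracted the medians were 0.76 at 8 h, 1.01 at 16 h, 1.16 at 24 h and 1.18 at 48 h, so 16 h was then below 24 h. Input chromatin, the unselected control, had medians of 0.90 at d0, 0.78 at 8 h, 1.15 at 16 h, 0.68 at 24 h, 0.71 at 48 h and 0.89 at d4, and so moved over the same times. The part of input in the GATA6 medians up to 48 h was not tested.

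**Figure D2:**
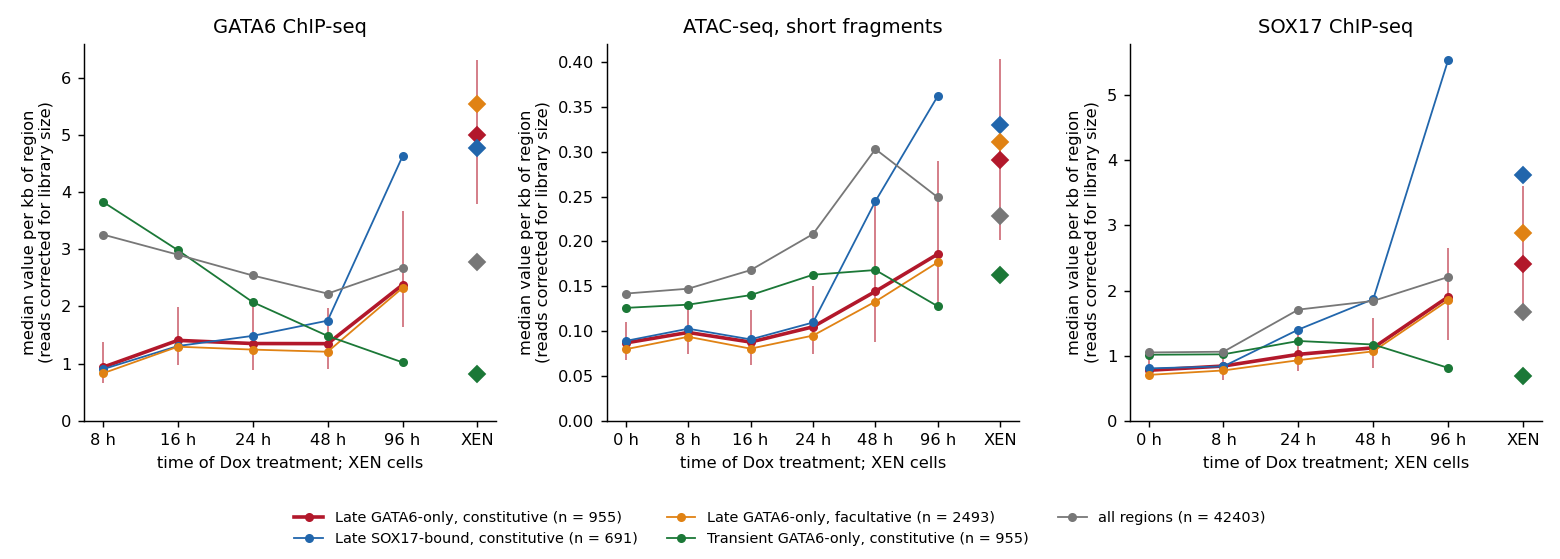
Median signal per kb of region (vertical axes, pooled reads corrected for library size) of GATA6, SOX17 and ATAC-seq against time of Dox treatment and in XEN cells, for the Late GATA6-only constitutive regions, the comparison classes and all regions, with vertical bars for the quartiles of the Late GATA6-only constitutive regions. The GATA6 median of the Late GATA6-only constitutive regions goes from 0.94 at 8 h to 2.38 at 96 h and 5.0 in XEN cells, and their ATAC median from 0.09 at d0 to 0.19 at 96 h and 0.29 in XEN cells.

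GATA6 was higher in XEN cells than at d4 in 758 of the 955 regions (79.4%, against 48.5% of all regions). XEN values were at least 2 times those of d4 in 508 (53.2%, against 17.3%). The reverse held in 67 (7.02%, against 18.2%). The highest of the 6 GATA6 values was the XEN value in 729 members (76.3%, against 31.9% of all regions). It was the d4 value in 143 (15.0%, against 13.9%). Among the Late SOX17-bound constitutive regions the highest value was that of d4 in 46.0% and that of XEN cells in 50.4%. In the facultative class it was that of XEN cells in 84.0% and that of d4 in 9.79%, so a high XEN value was common to both Late GATA6-only classes. The Spearman rho between GATA6 at d4 and in XEN cells was -0.09 over the 955 members and 0.73 over all regions. The Late cluster was set by GATA6 values over time, which narrows their range, so nothing is read from this contrast. The region of the Atp8a2 intron on chromosome 14 had GATA6 values of 1.30, 1.65, 1.22, 1.02 and 2.15 per kb at 8, 16, 24, 48 and 96 h and 7.78 in XEN cells, so it was low until d4 and high only in XEN cells. The intergenic region at chr10:126514658-126514941 showed the opposite order, with 0.43, 0.41, 2.25, 3.32 and 2.61 per kb over the same times and 0.59 in XEN cells.

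**Figure D3:**
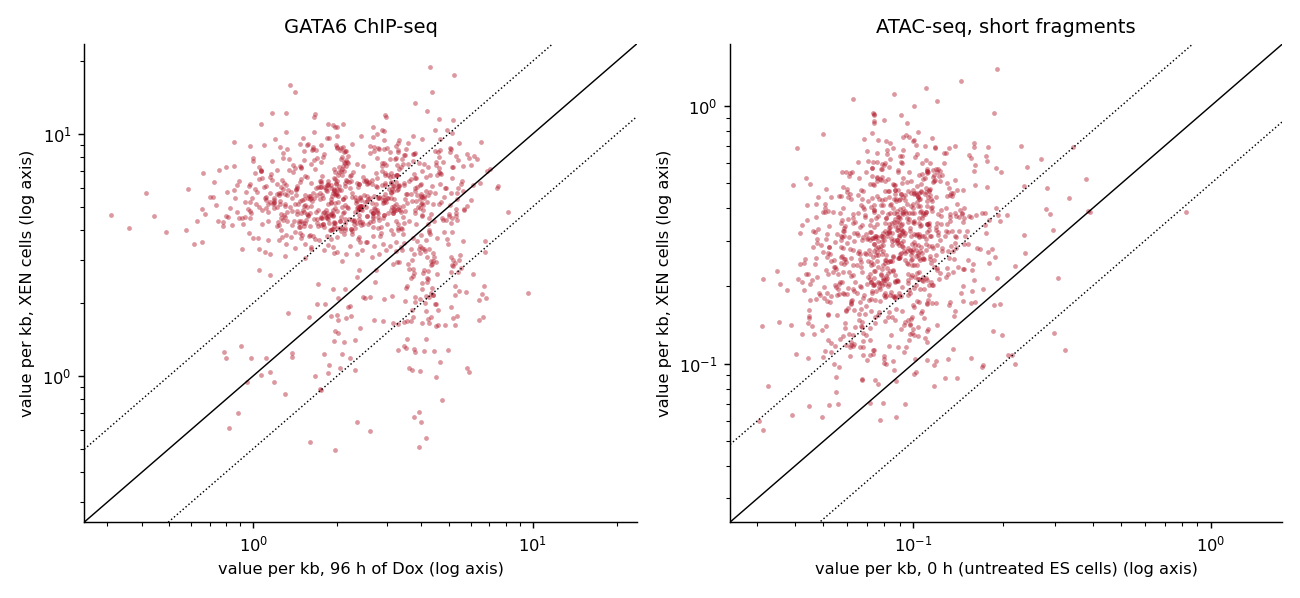
Values per kb of each of the 955 Late GATA6-only constitutive regions on log axes, with the line of equality drawn solid and 2-fold differences dotted. In GATA6 at d4 against XEN cells, 758 points lie above the line of equality, and in ATAC-seq at d0 against XEN cells 924 do.

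Chromatin at these regions was nearly always closed before GATA6 was induced. By the authors' ATAC-seq class, 896 members were closed at d0, 58 were moderate and 1 was accessible, which made 59 not closed (6.18%, 95% Wilson interval 4.82 to 7.89). The share was 1.28% among Late GATA6-only regions in facultative heterochromatin (32 of 2493), a difference of 4.89 points (95% interval 3.44 to 6.64, two-sided Fisher's exact test, Benjamini-Hochberg adjusted p = 4.73e-13), with the same direction on 15 of 20 chromosomes. Against Transient GATA6-only regions in constitutive heterochromatin, of which 22.7% were not closed, the difference was -16.5 points (interval -19.6 to -13.5, adjusted p = 1.21e-24, 19 of 20 chromosomes). Against the Late SOX17-bound constitutive regions (7.24%) the difference was -1.06 points (interval -3.62 to 1.36, adjusted p = 0.533) and was not larger than counting error. Over all regions 38.7% were not closed. DNase data may have entered the chromatin state that sets the facultative class apart (DNase medians 0.50 in members and 0.40 in that class). That comparison may thus not be independent of the selection. The units of these tests were regions, not samples, and neighbouring regions are not independent. Both differences rest on moderate regions, as with moderate regions counted as closed only 1 member remained and neither passed the threshold (adjusted p = 0.415 against the facultative and 1.0 against the Transient class).

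ATAC-seq signal was higher at the later times. The members' medians were 0.087 per kb at d0, 0.098 at 8 h, 0.088 at 16 h, 0.105 at 24 h, 0.144 at 48 h and 0.186 at 96 h, and 0.291 in XEN cells. The value was at least 2 times that of d0 in 66 regions (6.91%) at 24 h, in 343 (35.9%) at 48 h and in 505 (52.9%) at 96 h, and in 768 (80.4%) in XEN cells. Over all regions these shares were 12.1%, 47.4%, 41.2% and 38.3%, so those of the members were lower at 24 and 48 h. At 96 h the SOX17-bound, facultative and Transient classes had 87.0%, 58.4% and 10.8%, and in XEN cells 82.8%, 87.8% and 19.4%. Over all regions the d4 median was 0.249 and the XEN median 0.228 per kb, so the members ended below the all-region level in the Dox series and above it in XEN cells. The facultative class did the same, with medians of 0.177 at d4 and 0.310 in XEN cells. The SOX17-bound class had medians of 0.089 at d0 and 0.362 at d4. The 1 accessible member lay at chr11:59847240-59847522, at the promoter of Nt5m, whose product is a mitochondrial nucleotidase. It had no GATA6 motif in the window, a DNase value of 10.2, the highest of all members, and ATAC values of 0.821 per kb at d0, 0.957 at d4 and 0.386 in XEN cells. The 59 regions that were not closed carried a GATA6 motif in 66.1% of cases and a SOX17 motif in 27.1%, against 85.0% and 45.4% of the closed members.

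The GATA motif was the commonest feature of the DNA. A GATA6 motif lay within 100 bp to either side of the summit (the window) in 801 members (83.9%, interval 81.4 to 86.1), compared with 35.0% of 1850 control windows 3 kb to either side of the same regions and 77.1% of all GATA6 regions. The Late SOX17-bound constitutive regions had one in 74.7% (516 of 691), 9.20 points less (interval 5.24 to 13.2, adjusted p = 1.18e-05, 16 of 19 chromosomes). The Late facultative class (83.0%, difference 0.88 points, interval -1.97 to 3.56, adjusted p = 0.628) and the Transient constitutive class (84.2%, difference -0.31 points, interval -3.60 to 2.98, adjusted p = 0.901) differed from the members by less than counting error. The presence of the motif was thus near that of the Transient class, but its match score was not. The best motif of the region scored at or above 10.2, the median of all regions with a motif, in 38.1% of members. Regions without a motif counted as below it, and the share over all regions was 44.9%. It was 54.8% in Transient constitutive regions, a difference of -16.6 points (interval -21 to -12.2, adjusted p = 1.78e-12, 18 of 20 chromosomes). The share was 30.5% in the SOX17-bound class, 7.58 points below the members (interval 2.93 to 12.1, adjusted p = 0.00285), and 39.2% in the facultative class (difference -1.11 points, interval -4.71 to 2.54, adjusted p = 0.628).

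**Figure D4:**
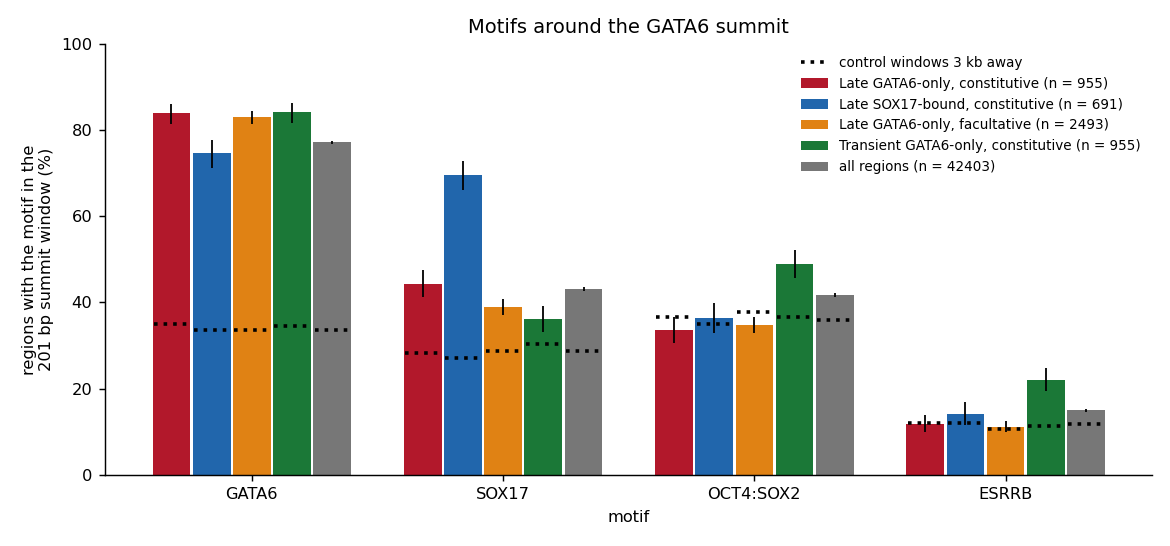
Share of regions (vertical axis, percent) with a GATA6, SOX17, OCT4:SOX2 or ESRRB motif in the window of 100 bp to either side of the GATA6 summit, by class, with 95% Wilson intervals as bars and the share of control windows 3 kb away as dotted lines. The Late GATA6-only constitutive regions have a GATA6 motif in 83.9%, a SOX17 motif in 44.3% and an OCT4:SOX2 motif in 33.6%.

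The motifs lay close to the summits. The best GATA6 motif of the window had a median distance of 30 bp from the summit, and 75% lay within 50 bp. At least 2 motifs were in the windows of 427 members (44.7%, against 37.8% of all regions) and at least 3 in those of 122 (12.8%, against 12.2%). Read along the 13 positions of the best motif, the letters GATAA stood at positions 5 to 9, each in turn in 99.4%, 98.3%, 95.3%, 93.6% and 91.5% of the 801 motifs. Position 4 was A in 78.4% and position 10 was G in 67.5%, while no base passed 40% at positions 1 to 3. These motifs were picked with the GATA6 matrix and a minimum score, which favour the core letters. The letter shares thus describe the hits, and nothing about the bound DNA is read from them. The plain letters AGATAA, on either strand, were found in 58.1% of member windows, 54.3% of all windows and 12.8% of control windows, and TGATAA in 37.0%, 30.8% and 10.6%. The longer AGATAAG, which contains the first of these, was in 27.9% of all windows. It was in 24.6% of member windows and 37.3% of Transient constitutive windows. These words were chosen after the data were seen and carry no test.

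Among the strongest matches, GATA6 signal differed in level and in timing. The region near Lmo4 on chromosome 3 had the highest score of all members, 15.2, with GATA6 at 1.74, 2.95, 2.74, 2.78 and 3.26 per kb from 8 to 96 h and 4.36 in XEN cells. The intergenic region on chromosome 13 scored 15.1 and had 1.54, 1.47, 2.0, 3.42 and 4.35 per kb over the same times and 2.89 in XEN cells, lower than at d4. An intron of Carmil1, a regulator of actin capping, scored 15.0 and had 1.14, 1.87, 3.70, 2.45 and 1.99 per kb and then 3.24. The Fam129a intron, with a score of 15.0, was unusual in having its highest value at 8 h (5.70 per kb), followed by 2.55, 1.08, 2.53, 2.47 and, in XEN cells, 4.24. Across the 853 members with a deposited score, its Spearman rho with GATA6 was 0.19 at 8 h, 0.05 at d4 and 0.00 in XEN cells.

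SOX17 motifs were present although no SOX17 peak was assigned. They lay in the windows of 423 members (44.3%, interval 41.2 to 47.5), against 28.2% of control windows and 43.1% of all regions. The SOX17-bound class had them in 69.6%, so the difference was -25.3 points (interval -29.9 to -20.6, adjusted p = 9.68e-24, 19 of 19 chromosomes). It was 5.38 points higher than in the facultative class (38.9%, interval 1.71 to 9.08, adjusted p = 0.00658, 16 of 20 chromosomes) and 8.17 points higher than in the Transient constitutive class (36.1%, interval 3.77 to 12.5, adjusted p = 0.000667, 15 of 20). Neither of these 2 differences held when motifs were counted anywhere in the region, where the members, which are narrower (median 285 bp against 329 and 360 bp), had log2 odds ratios of 0.03 and -0.06. The core letters ACAATG, on either strand, were in 22.5% of member windows, 23.0% of all windows, 10.4% of control windows and 46.3% of the SOX17-bound class.

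Pooled SOX17 signal was nevertheless higher at later times over the members. Its median was 0.77 per kb at d0, 1.90 at d4 and 2.41 in XEN cells. At d4, 592 regions (62.0%) had at least 2 times the d0 value, against 50.8% of all regions. The shares were 99.4%, 67.0% and 7.64% in the SOX17-bound, facultative and Transient classes. In the 508 members whose GATA6 was at least 2 times higher in XEN cells than at d4, 50.2% held a SOX17 motif and the SOX17 medians were 1.54 per kb at d4 and 3.08 in XEN cells. In the 67 members with the reverse order, 28.4% held the motif and the medians were 2.63 and 1.05 per kb. SOX17 and GATA6 medians therefore had the same order between d4 and XEN cells in both sets, whose members were split by GATA6 itself. In the 380 members between these sets the orders differed. Their GATA6 medians were 3.44 per kb at d4 and 4.35 in XEN cells, and their SOX17 medians 2.38 and 1.99. A GATA6 and a SOX17 motif occurred together in 349 windows (36.5%), with a median gap of 34 bp, and overlapped in 22. The 3 members in which they were nearest were the region on chromosome 10 and the Dis3l2 intron shown above and an intron of Ano1, a gene for a calcium-activated chloride channel. At chr10:126514658-126514941 SOX17 was 0.81 per kb at d0, 2.19 at d4 and 1.00 in XEN cells, at the Dis3l2 intron 0.57, 2.14 and 2.23, and at the Ano1 intron 0.81, 0.50 and 1.07.

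The composite OCT4:SOX2 motif was about as frequent as in flanking DNA. It was found in 321 member windows (33.6%, interval 30.7 to 36.7) and in 36.6% of their control windows. The Transient constitutive class had it in 48.9%, a difference of -15.3 points (interval -19.6 to -10.9, adjusted p = 5.74e-11, 17 of 20 chromosomes). The SOX17-bound class (36.3%, difference -2.71 points, interval -7.39 to 1.94, adjusted p = 0.382) and the facultative class (34.7%, difference -1.04 points, interval -4.53 to 2.52, adjusted p = 0.628) differed from the members by less than counting error in this window. The motif of ESRRB, a nuclear receptor of the pluripotency network, was in 11.7% of member windows and 11.9% of control windows. Pooled OCT4 signal had medians of 0.74 per kb at d0 and 1.15 at d4, and SOX2 of 0.79 and 1.5, although these regions had no assigned PTF peak. ESRRB signal went from 0.85 to 0.77 per kb, and input from 0.90 to 0.89. OCT4 was at least 2 times its d0 value at d4 in 271 members (28.4%, against 27.8% of all regions). The same held for SOX2 in 422 (44.2%, against 30.8%) and for input in 42 (4.40%, against 3.83%). OCT4 doubled in 72.5% of the SOX17-bound, 34.3% of the facultative and 1.36% of the Transient class, and SOX2 in 81.0%, 51.2% and 1.15%.

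Depletion of OCT4 raised GATA6 binding at few of these regions by the authors' call. OCT4 is a POU-domain factor required for pluripotency, and its mRNA (from Pou5f1, or Oct4) was targeted by siRNA together with 48 h of GATA6 induction. The authors called binding raised where a false discovery rate was under 0.1 and the log2 fold change over 0.5. Of all 42403 regions, 8.57% were called raised and 6.25% lowered. Among the members 30 were raised (3.14%, interval 2.21 to 4.45) and 6 were lowered (0.63%, interval 0.29 to 1.36), so both shares were below those of all regions. The members were narrower than all regions (median 285 against 525 bp). They also had less GATA6 signal per region with control siRNA (median 0.59 against 1.64). The part this plays in the shares of calls beside all regions was not tested. The SOX17-bound class had 24.6% raised (170 of 691), a difference of -21.5 points (interval -24.9 to -18.1, adjusted p = 2.16e-39, 19 of 19 chromosomes). The facultative class had 6.10% raised (152 of 2493), a difference of -2.96 points (interval -4.33 to -1.38, adjusted p = 0.000667, 18 of 20 chromosomes). None of the 955 Transient constitutive regions was raised, which allows a share of up to 0.314% at 3 counts (Wilson upper limit 0.401%), and the members were 3.14 points higher (interval 2.13 to 4.45, adjusted p = 5.07e-09). Within 10 bins of GATA6 signal in the control knockdown, an alternative chosen after the data were seen, the log2 odds ratio was -3.09 against the SOX17-bound class and -0.97 against the facultative class, close to the unstratified -3.33 and -1.0.

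**Figure D5:**
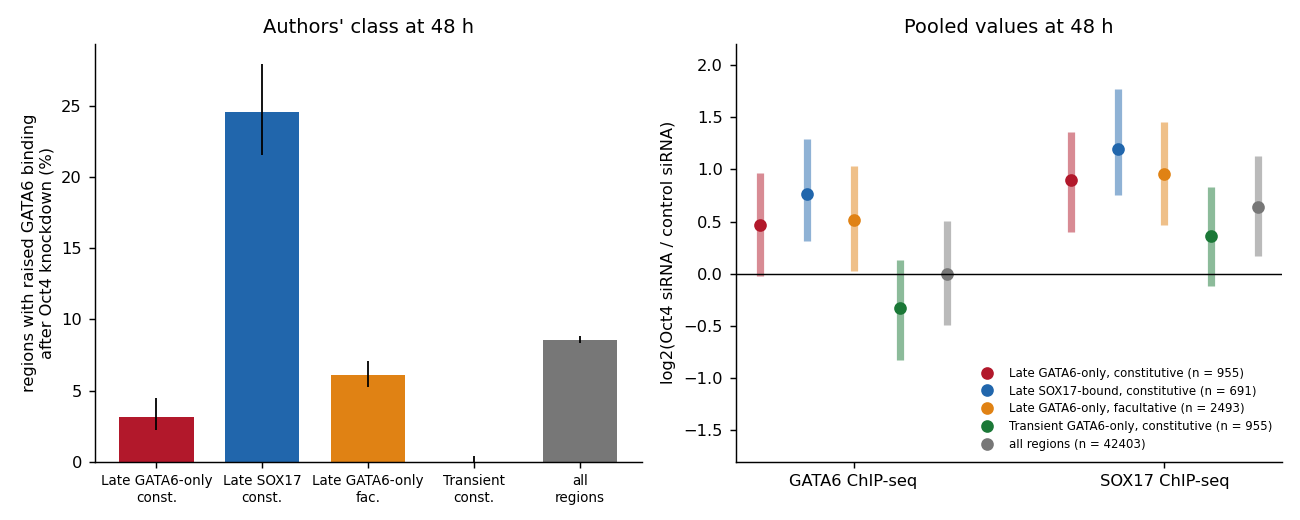
Left, share of regions (percent, with 95% Wilson intervals) called raised in GATA6 binding by the authors after Oct4 knockdown at 48 h of Dox, by class, and right, log2 ratio of pooled values with Oct4 siRNA over control siRNA for GATA6 and SOX17, with medians and quartiles. The share is 3.14% in the Late GATA6-only constitutive regions and 24.6% in the SOX17-bound class.

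The pooled GATA6 and SOX17 values were higher with Oct4 siRNA in most members. The median GATA6 value of the members was 1.87 per kb with control siRNA and 2.75 with Oct4 siRNA, a median log2 ratio of 0.47, against 0.00 over all regions. It was higher with Oct4 siRNA in 701 members (73.4%, against 49.8% of all regions). It was at least 2 times higher in 228 (23.9%, against 11.1%), of which 28 were among the 30 called raised. SOX17 signal had a median log2 ratio of 0.90 in the members and 0.64 over all regions. These ratios come from pooled libraries and have no replicate error, so they cannot be set against the calls. The Transient class had a median log2 GATA6 ratio of -0.33, the SOX17-bound class of 0.76 and the facultative class of 0.52.

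The 30 raised members were all closed at d0, while 59 of the 919 unchanged members (6.42%) were not. A GATA6 motif lay in the window of 27 raised members (90.0%, against 83.8% of the unchanged members). An OCT4:SOX2 motif was present in 6 of the 30 (20.0%) and in 34.2% of the unchanged members. The raised members were wider (median 340 against 283 bp), and the part this plays in the calls was not tested. Their GATA6 median was 3.80 per kb at d4 and 6.31 in XEN cells, against 2.36 and 4.97 in the unchanged members, and at 48 h of Dox without siRNA the medians were close (1.39 and 1.35). Among the 5 with the highest motif scores, the region in an intron of Gars, the glycyl-tRNA synthetase gene, had 3.63 per kb with control siRNA and 7.85 with Oct4 siRNA. The region near Rab4a, a gene for an endosomal GTPase, had 1.41 and 5.77 per kb. At the promoter of Gm16534, within Fam78a, the values were 2.25 and 6.81 per kb. The intron of Ptprm, a receptor phosphatase gene, had 1.05 and 5.5 per kb, and that of the catenin gene Ctnna3 had 3.81 and 13.2. All 5, chosen by score, held the letters AGATAAG in the best motif of the window.

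Most members lay in introns or between genes. The summit was in an intron in 477 (49.9%), between genes in 369 (38.6%), within 1 kb of a transcript start in 71 (7.43%) and in another exon in 38 (3.98%), against 46.0%, 38.5%, 12.4% and 3.11% of all regions. The median distance to the nearest transcript start was 11957 bp (8796 bp over all regions). Summits between genes made up 52.3% of the Transient constitutive class, a difference of -13.6 points (interval -18 to -9.16, adjusted p = 8.70e-09, 17 of 20 chromosomes). The differences from the SOX17-bound class (43.4%, -4.78 points, interval -9.58 to 0.03, adjusted p = 0.0802) and the facultative class (38.2%, 0.45 points, interval -3.14 to 4.11, adjusted p = 0.850) did not pass the threshold. The first of these passed it without chromosome 4 (adjusted p = 0.0482) or chromosome 14 (adjusted p = 0.0373). The members were spread over 863 nearest protein-coding genes, 779 of which had a single member, and the 8 genes with 3 were Ank3, C2cd3, Efnb2, Etl4, Etv6, Tcf4, Tcf7l1 and Zfp608.

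Few summit bases were masked as repeats in the reference. H3K9me3 is known for silencing repeats, but the masking names no repeat family, so the kinds of repeat covered were not examined. The summit base was repeat-masked in the reference in 121 members (12.7%, interval 10.7 to 14.9), against 27.4% of control windows and 15.8% of all regions. It was masked in 19.0% of the SOX17-bound class, a difference of -6.29 points (interval -9.95 to -2.73, adjusted p = 0.000961, 16 of 19 chromosomes), in 22.8% of the Transient constitutive class, a difference of -10.2 points (interval -13.5 to -6.75, adjusted p = 1.98e-08, 18 of 20), and in 11.5% of the facultative class (difference 1.16 points, interval -1.20 to 3.71, adjusted p = 0.462). The authors kept only reads of high mapping quality, which removes reads from near-identical repeats, and the part this plays in these shares was not tested. Gene families that often sit in H3K9me3 chromatin were the nearest genes of few members. Olfactory receptor genes were nearest to 4 members (0.42%, against 0.32% of all regions), vomeronasal receptor genes to 2 (0.21% and 0.10%), genes with the zinc-finger prefix Zfp to 6 (0.63% and 0.83%) and protocadherin genes to 1 (0.10% and 0.05%). In the same order, 30 of 1134, 7 of 330, 27 of 397 and 22 of 68 genes had a member within 100 kb. For any GATA6 region these counts were 741, 143, 347 and 42. A single member can be within that distance of several genes.

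Some members lay near known genes of PrE and of pluripotency. Of 10 endoderm transcription factor genes, 3 had a member within 100 kb, as did 2 of 12 basement membrane genes, 2 of 18 endoderm surface and secreted genes and 2 of 16 pluripotency genes. Among all 42403 regions, each of these genes had a region within that distance. An endoderm transcription factor gene was the nearest gene of 2 members (0.21%, against 0.12% of all regions), a basement membrane gene of 2 (0.21% and 0.22%), a surface or secreted gene of 1 (0.10% and 0.16%) and a pluripotency gene of 1 (0.10% and 0.15%), so the shares were near those of all regions. The nearest member was 751 bp from the start of Hnf4a, which encodes a nuclear receptor of endoderm. GATA6 there was 0.50, 0.51, 1.32, 1.46 and 5.32 per kb from 8 to 96 h and 4.58 in XEN cells, with a motif score of 7.30, among the weaker matches. ATAC signal at this region was 0.062 per kb at d0, 0.111 at d4 and 0.256 in XEN cells. In an intron of Lama1, which encodes a laminin chain of basement membranes, GATA6 was 0.72, 1.21, 1.39, 1.61 and 3.31 per kb and 9.17 in XEN cells, and ATAC went from 0.178 to 0.875 at d4 and 0.270 in XEN cells. A second member near Lama1, 15830 bp from its start, was the one with an H3K9me3 value of 4.50, and had GATA6 at 1.75, 1.86, 2.75, 3.87 and 4.32 per kb and 4.68 in XEN cells. The member 6795 bp from Klf4, a pluripotency factor gene, had 1.59, 2.74, 1.33, 1.40 and 5.19 per kb and 3.02 in XEN cells.

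The other listed genes with a member within 100 kb, outside chromosome 18, were Foxq1, Fst, Lamc1, Tfcp2l1 and Apoe. The member 11136 bp from Fst, which encodes the activin antagonist follistatin, had GATA6 at 1.17, 1.63, 1.63, 2.49 and 4.02 per kb from 8 to 96 h and 3.39 in XEN cells. The member 9079 bp from the forkhead gene Foxq1 had 1.00, 1.43, 1.24, 1.70 and 2.53 per kb and 3.58 in XEN cells. At Lamc1, a laminin gene whose nearest member was 48907 bp away, the d4 and XEN values were 2.13 and 6.09 per kb. Tfcp2l1, a pluripotency factor gene, had its nearest member 50100 bp from its start and within the gene, with 4.47 per kb at d4, 8.48 in XEN cells and the high SOX17 values of 7.34 and 8.45. At the member 74810 bp from Apoe, an apolipoprotein gene, GATA6 was 3.03 per kb at 8 h, 1.71 at d4 and 6.03 in XEN cells. In all of these genes except Fst, Klf4 and Hnf4a, the XEN value of the nearest member was above its d4 value.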

How the data were processed

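The authors aligned reads to mm10 with bowtie2, kept those of high mapping quality and called peaks with MACS2. Signal values are deposited pooled values, reads per region corrected for library size by the authors, and were divided here by region width. The deposited motif score is the FIMO log-odds score of the best hit of a JASPAR matrix. All region classes are the authors' own (k-means for GATA6 timing and chromatin state, called peaks for SOX17 and PTFs, DESeq2 for the knockdown). Versions of these tools are not given in the sources used here. Of 105 columns, 22 were not used.

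Windows of 100 bp to either side of summits, and control windows 3 kb away that overlapped no GATA6 region, were scanned with matrices recovered from the deposited hits, which returned the deposited presence and best score in 100% of regions. Summits were annotated with the GENCODE gene models given with GRCm38. For 8 measures, members were compared with 3 classes by two-sided Fisher's exact tests on regions, and the 24 p-values were adjusted together by Benjamini-Hochberg. Differences carry 95% Newcombe intervals and shares 95% Wilson intervals, which cover counting error only. The code was tested on simulated data. Members, lists and tests were chosen with earlier results of these data known. Regions named were the 5 with the best motif scores, the 3 with the nearest GATA6 and SOX17 motifs, any accessible at d0, the 5 raised regions with the best scores, the nearest member of each listed gene within 100 kb, and the 3 with the most and the 3 with the least H3K9me3, leaving out chromosome 18. Software was scipy 1.17.1, numpy 2.4.6 and pandas 2.3.3 under Python 3.11.15, with matplotlib 3.10.9 for plots.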

Additional observations from a re-analysis of the deposited data

How the results depend on the processing

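No paired analysis was possible because no column holds a value of a single library, and leaving out replicates was not run for the same reason. Values here are log2 odds ratios of the members against a class. For SOX17 motifs against the Late facultative class the ratio was 0.32, and it was 0.17 within 50 bp of the summit, 0.034 anywhere in the region and 0.24 with motifs of at least the median score, each no longer past the threshold. Against the Transient class it was 0.49 and turned to -0.055 anywhere in the region. OCT4:SOX2 motifs anywhere in the region passed the threshold against the SOX17-bound (-0.59) and facultative classes (-0.33), as did high-scoring GATA6 motifs against the Transient class (-0.80). Leaving out 1 chromosome at a time took the intergenic share against the SOX17-bound class from -0.34 to -0.21. With accessible regions alone, the share open at d0 gave 2.97 against the facultative and 0.00 against the Transient class, neither past the threshold. Counting lowered in place of raised binding gave 0.54 against the SOX17-bound class, -0.12 against the facultative class and -2.67 against the Transient class. The median SOX17 value at d0 was 0.54 per kb with the lowest value subtracted, a setting added after the data were seen. The causes of these changes were not tested, except that fewer regions enter the accessible-only counts and longer stretches enter the whole-region counts. Of the other 148 values, all stayed on their side of the threshold or near their level, and 8, none past the threshold, changed sign, under 50 bp windows, whole regions, median-score motifs, accessible-only counts, width bins or chromosomes left out. The settings were these, GC bins, control knockdown signal bins, other repeat and score definitions and means for medians. The width and signal bins gave no value for raised binding against the Transient class, which had 0 raised regions. The GC and control signal bins were also chosen after the data were seen.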

Other observations

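The words TGAGTCA, the binding site of AP-1 factors, and GTAAACA, that of forkhead factors such as FOXA2, were searched on both strands after the data had been seen and carry no test. TGAGTCA was in the windows of 103 members (10.8%, 95% Wilson interval 9.0 to 12.9), in 3.03% of their control windows, in 12% of SOX17-bound, 10.9% of facultative and 6.49% of Transient class windows, and in 7.82% of all windows. GTAAACA was in 90 members (9.42%, interval 7.73 to 11.4), in 2.97% of control windows, in 9.26% of SOX17-bound, 10.1% of facultative and 3.77% of Transient class windows, and in 6.16% of all windows. Both words were thus about as frequent in the other Late classes as in the members. AAGGTCA, the site of ESRRB and related nuclear receptors, was in 5.13% of members, 4.05% of SOX17-bound, 5.13% of facultative and 12.4% of Transient class windows. ACATTCC, the site of TEAD factors, was in 7.23% of members and 7.69% of all windows, and GGGGCGG, the site of SP factors, in 0.73% and 3.10%. Members with TGAGTCA had an ATAC median of 0.395 per kb in XEN cells and those without it 0.280, while at d4 the medians were 0.195 and 0.186. The share with TGAGTCA was 12% in members whose XEN GATA6 value was at least 2 times that of d4 and 4.48% in the 67 with the reverse order.

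Chromosome X held 5 members, 0.52% of them, against 2.92% of all regions. The nearest other GATA6 region lay at a median of 11629 bp (8655 bp over all regions). It was of the Late cluster for 41.8% of members (33.6% of all regions) and in constitutive heterochromatin for 13.1% (9.87%). In the SOX17-bound, facultative and Transient classes these shares were 40.5%, 48.9% and 24.4% for Late and 16.8%, 10.4% and 16.0% for constitutive. Of the 955 members, 20 (2.09%) lay within 10 kb of another member. The share within 10 kb of a member was 1.61% over all regions and 1.88%, 2.69% and 1.05% in those classes.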
